A study of Mus musculus with 18 samples.

Results

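Runx1 and the genes of non-peptidergic nociceptors were examined in whole dorsal root ganglia (DRG) of 3 mouse lines that lack a sodium channel of sensory neurons. The 7 genes were Runx1, Prkcq, Otoa, Cd55, Osmr, Mrgprd and Lpar3, taken with all probe sets that the platform annotation gives them, and 6 of the 7 were measured among 18193 genes. Mrgprd has no probe set listed for it and was not analysed here. The 6 measured genes have 15 probe sets named for 1 gene, and 1 further probe set is shared by Cd55 and Cd55b and was not used for Cd55. Where a gene has several, the brightest one stands for it. The members were chosen from their values in Nav1.7 KO and littermate DRG, so those values are given as a description without a test.

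The samples were 3 arrays each of Nav1.7 KO, Nav1.7 littermate, Nav1.8 KO, Nav1.8 littermate, Nav1.9 KO and Nav1.9 littermate DRG, 18 arrays in all. Nav1.7 KO mice were conditional: floxed Scn9a was removed by Cre from the Advillin gene Avil, which is active in sensory neurons, and the Avil-Cre allele is present in no other line. Nav1.8 (Scn10a) and Nav1.9 (Scn11a) KO mice were global null mutants. Littermates are labelled wild type, and whether Nav1.7 littermates carried floxed alleles or Cre is not stated. Adult mice of both sexes were used, ganglia of all spinal levels were pooled, and whether 1 array held 1 animal is not stated. P-values therefore measure the spread between these samples, which may be technical, and the number of arrays limits the precision.

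In mouse DRG, small unmyelinated neurons divide after birth into peptidergic nociceptors, which make neuropeptides, and non-peptidergic nociceptors, which turn to the GDNF family receptor Ret. Runx1, a runt-domain transcription factor that binds DNA with its partner Cbfb, is known to be needed for the non-peptidergic fate and for many of its receptors. Mrgprd marks the largest non-peptidergic class, and Osmr, with Il31ra, marks a class of itch neurons that also makes Nppb and Sst. In RNA of a whole ganglion, fewer cells of a type and less RNA per cell cannot be told apart.

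Runx1 is read from a distal and a proximal promoter, and the RefSeq windows around both starts are shown because the members were chosen as genes of Runx1-dependent cells and Runx1 itself is one of them. All 7 members matched RefSeq windows, 8 windows of 300 bases in build GRCm38.p6 (250 bases before the start and 50 after). The first window below is distal (chr16:92826025-92826324, minus strand) and the second is proximal (chr16:92697280-92697579, minus strand). Capitals mark the letters ACCACA, the reverse complement of the RUNX motif TGTGGT.
Runx1 distal: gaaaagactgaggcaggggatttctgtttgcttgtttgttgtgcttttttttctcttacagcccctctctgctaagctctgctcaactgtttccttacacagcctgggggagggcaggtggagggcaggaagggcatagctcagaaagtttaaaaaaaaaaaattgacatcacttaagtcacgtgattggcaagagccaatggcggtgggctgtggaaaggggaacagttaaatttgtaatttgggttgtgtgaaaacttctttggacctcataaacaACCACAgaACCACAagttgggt
Runx1 proximal: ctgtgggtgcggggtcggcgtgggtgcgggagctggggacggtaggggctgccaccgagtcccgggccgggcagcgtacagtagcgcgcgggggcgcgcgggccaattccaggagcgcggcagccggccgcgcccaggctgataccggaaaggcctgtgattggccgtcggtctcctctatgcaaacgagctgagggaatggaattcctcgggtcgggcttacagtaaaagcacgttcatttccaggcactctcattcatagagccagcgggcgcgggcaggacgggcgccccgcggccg
The distal window holds ACCACA at 2 places, 29 and 37 bases after the start, with no overlap between them. Both strands of the other 7 windows, those of Prkcq, Otoa, Cd55, Osmr, Mrgprd and Lpar3 included, hold neither TGTGGT nor the variant TGCGGT. Of 32851 mouse windows of the same kind, 16.8% hold TGTGGT on either strand and 6.45% hold TGCGGT, so 1 of 8 member windows is a share near that of all windows. The letters describe the sequence and were not tested for binding.

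The targeted genes, the sex marker Xist and control probe sets describe the arrays. All levels are log2 intensities, and a difference of 1 is a doubling. Scn10a lay at 7.76 to 7.89 in Nav1.8 KO DRG, against 8.96 to 9.74 in littermates, and Scn11a lay at 10.90 to 11.13 in Nav1.9 KO DRG, against 12.61 to 13.27 in littermates. Scn9a overlapped between Nav1.7 KO and littermate arrays and did not check those labels, since the probes may lie outside the removed exons. Avil, lower in Nav1.7 KO DRG by 0.64, was at 12.21 to 12.94 in every array, as is usual of sensory ganglia. Xist was high in 7 arrays (all Nav1.7 littermates, Nav1.7 KO replicates 1 and 3, Nav1.8 KO replicates 2 and 3) and low in 11.

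The 5′ control probe set of Gapdh minus its 3′ control probe set, a measure of how complete the labelled RNA was, set the Nav1.8 line apart. This log2 difference was -0.74, -0.71 and -0.32 in Nav1.8 KO arrays, against -1.15, -0.90 and -0.58 in Nav1.8 littermates. It lay between -0.25 and -0.06 in the other 12 arrays, and the same control of Actb ordered the lines alike, with -1.72 to -1.03 in the Nav1.8 line and -1.01 to -0.74 in the others. Nav1.7 KO (-0.19 to -0.13) and Nav1.7 littermates (-0.25 to -0.17) overlapped.

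All 6 measured members differed between Nav1.7 KO and littermate DRG without overlap of the arrays, 5 lower and 1, Osmr, higher. Of all genes, 20.4% did not overlap between these groups. In the fit of all genes, 4.33% of genes passed an adjusted p of 0.05 in this comparison (2.51% lower and 1.81% higher), as did all 6, which their choice from these values makes no finding.

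Runx1 (probe set 1422864_at) had log2 values of 9.85, 9.69 and 9.53 in Nav1.7 KO arrays, against 10.56, 10.50 and 10.43 in Nav1.7 littermates. Its difference was -0.80 (standard error 0.132). The littermate values were the 3 highest of all 18 arrays, while Nav1.8 KO arrays were at 9.77, 9.89 and 9.98, and Nav1.8 littermates at 9.47, 9.54 and 9.71. In the Nav1.9 line the KO arrays were at 10.26, 10.31 and 9.73 and the littermates at 9.91, 9.67 and 10.005, so Nav1.7 KO lay within the range of the other lines.

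Prkcq, the theta isoform of protein kinase C, had 8.58, 8.19 and 8.25 in Nav1.7 KO arrays, against 9.27, 9.27 and 9.16 in littermates (difference -0.89, standard error 0.0948). Here the KO arrays were the ones that stood apart, since the other 15 arrays lay between 9.14 and 9.53. Otoa, which encodes otoancorin, a protein known from the inner ear, had 6.85, 6.58 and 6.79 in Nav1.7 KO arrays, against 7.55, 7.62 and 7.54 in littermates (difference -0.83, standard error 0.0952). The Otoa values of Nav1.7 KO were below all 15 other arrays, the nearest of which, a Nav1.8 littermate, was at 6.88.

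Cd55, the decay-accelerating factor that shields cells from complement, had 12.13, 12.07 and 12.23 in Nav1.7 KO arrays, against 12.73, 12.63 and 12.53 in littermates (difference -0.49, standard error 0.0699). All KO values were below the other 15 arrays, of which the lowest was 12.28. Lpar3, a receptor for lysophosphatidic acid, had 10.54, 10.46 and 10.71 in Nav1.7 KO arrays, against 10.89, 10.89 and 10.92 in littermates (difference -0.33, standard error 0.0797). Its KO values overlapped those of Nav1.9 littermates, at 10.56, 10.71 and 10.52.

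Osmr, the receptor subunit shared by oncostatin M and interleukin 31, had 11.01, 11.19 and 10.90 in Nav1.7 KO arrays, against 10.49, 10.64 and 9.41 in littermates. Littermate replicate 3 lay far below the other littermates, and the difference of 0.85 (standard error 0.213) was 0.46 without that array. The KO values were above all 15 other arrays, of which the highest was 10.68.

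**Figure D1:**
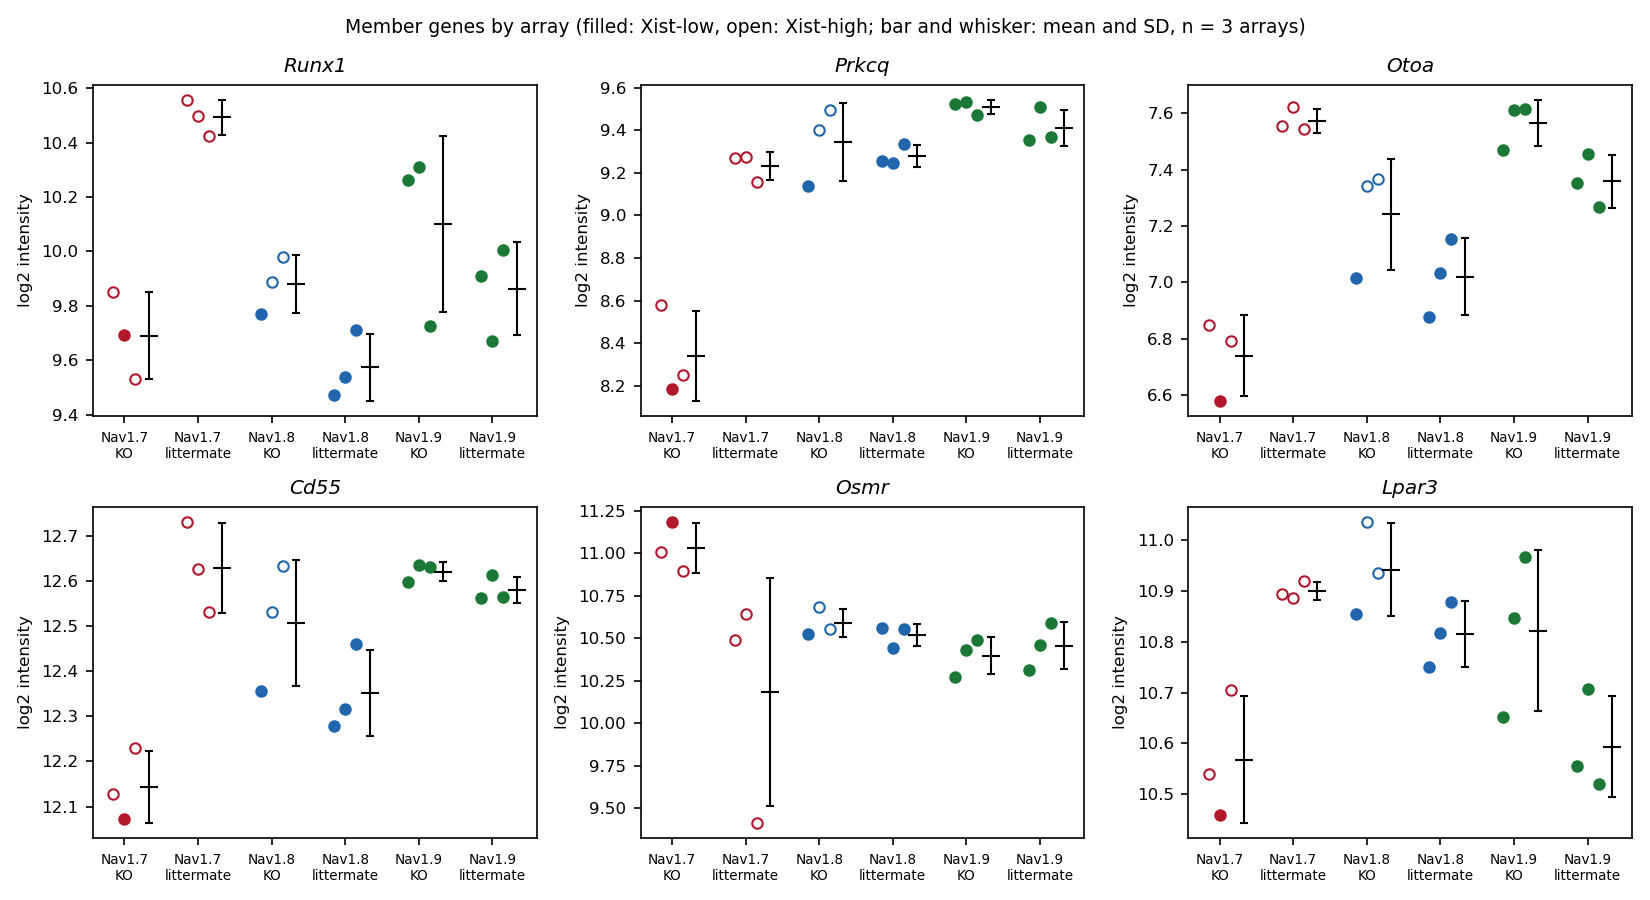
Log2 intensity of the 6 measured members in each of 18 arrays, by line and genotype, with group mean and SD (n = 3 arrays). Points are open where Xist was high. Prkcq, Otoa and Cd55 are lowest and Osmr highest in Nav1.7 KO arrays, while for Runx1 the Nav1.7 littermates, at 10.43 to 10.56, are highest.

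Set against the 15 other arrays together, Nav1.7 KO was below all of them for 3 members (Prkcq, Otoa and Cd55) and above all of them for 1 (Osmr), where 2.07% of all genes were below and 1.46% above. The other littermates give a second baseline for the same KO arrays. Prkcq in Nav1.7 KO differed from the mean of Nav1.8 and Nav1.9 littermates by -1.004 (standard error 0.0825), Otoa differed by -0.45 (0.0829) and Cd55 by -0.32 (0.0620). For Runx1 that difference was -0.03 (standard error 0.113), because Nav1.7 littermates were 0.78 (0.113) above the other littermates. Runx1, Otoa and Lpar3 were each higher in all 3 Nav1.7 littermates than in all 6 other littermates, 3 of 6 members, where 6.4% of all genes were. Osmr in Nav1.7 KO was 0.55 (standard error 0.182) above the other littermates. The members were chosen from Nav1.7 KO and littermate values, so the counts and differences given here are a description and no finding.

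The probe sets of a gene did not move alike. Of 6 Runx1 probe sets, 3 differed between Nav1.7 KO and littermates by -0.94 (1422865_at), -0.80 (1422864_at) and -0.63 (1440878_at). The other 3 differed by -0.17 (1452531_at), -0.15 (1427650_a_at) and -0.01 (1452530_a_at) and were dimmer, at percentiles 52.9 to 61.4 of the brightness of all probe sets. The mean over all 6 gave -0.45.

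Runx1 1440878_at had 9.17, 8.99 and 9.11 in Nav1.7 KO arrays, against 9.80, 9.73 and 9.62 in littermates. Unlike 1422864_at, it was below all 15 other arrays in Nav1.7 KO, since the other lines lay between 9.27 and 9.64. Its difference from the other littermates was -0.41 (standard error 0.0750) in Nav1.7 KO and 0.22 (0.0750) in Nav1.7 littermates. Whether Runx1 in Nav1.7 KO was below the level of the other lines therefore depended on the probe set.

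The 3 Cd55 probe sets gave -0.49 (1418762_at), -0.48 (1443906_at) and -0.59 (1460242_at) between Nav1.7 KO and littermates. Against the littermates of the other lines, Nav1.7 KO differed by -0.32 and -0.36 for the first pair and was below all 15 other arrays. For 1460242_at it differed by 0.05 and overlapped arrays of the Nav1.8 line only, which lay between 9.86 and 10.80. Its Nav1.7 KO arrays, the highest at 10.615, were below all Nav1.9 arrays, the lowest of which was at 10.77. For Cd55 too this therefore depended on the probe set, and for 1460242_at on the line compared. Of the 3 Osmr probe sets, 1418674_at gave 0.85, and 1418675_at had 6.11, 5.91 and 5.62 in Nav1.7 KO arrays, against 5.31, 5.56 and 5.05 in littermates (difference 0.57, standard error 0.130). The KO arrays were again above all 15 others. Osmr 1459217_at, at percentile 11.6 of brightness, gave 0.05.

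**Figure D2:**
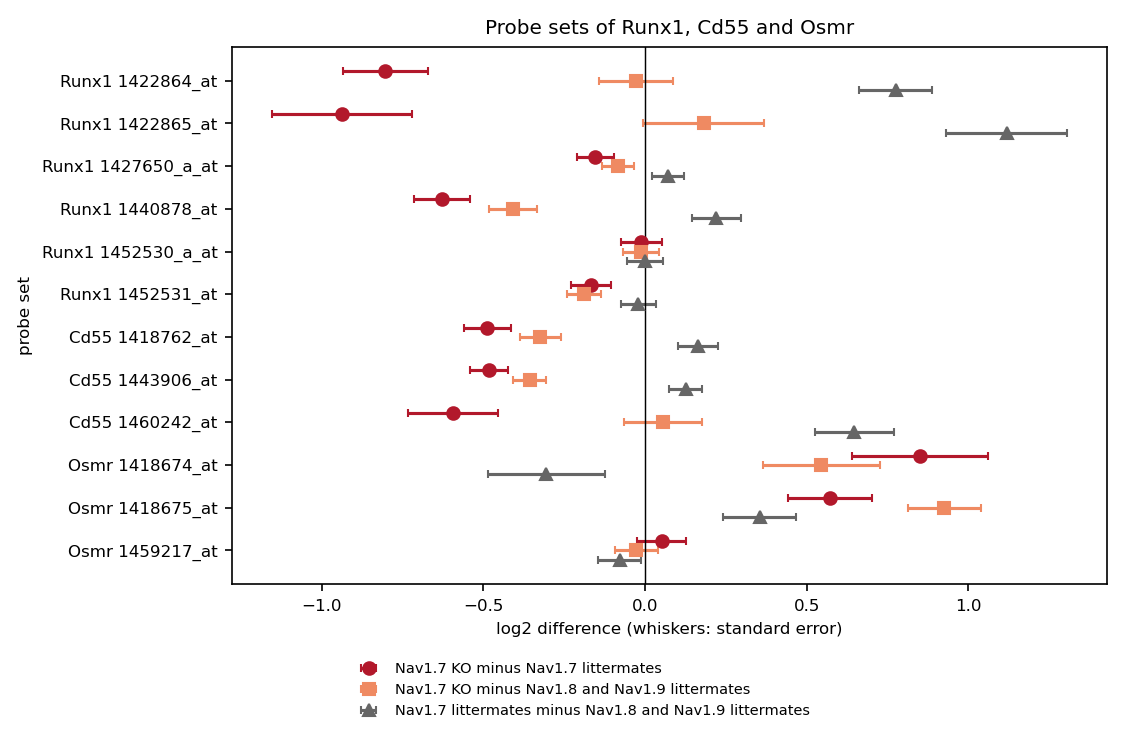
Log2 differences of each probe set of Runx1, Cd55 and Osmr, for Nav1.7 KO against its littermates (circles), Nav1.7 KO against the littermates of the other lines (squares) and Nav1.7 littermates against the littermates of the other lines (triangles), with standard errors. For Runx1 1422864_at the first is -0.80 and the second -0.03, and for Cd55 1443906_at they are -0.48 and -0.36.

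Littermate levels differed between lines for some members. Between Nav1.8 and Nav1.9 littermates, 2 of the 6 members were lower in Nav1.8 littermates and passed the test, where 12.8% of all genes differed in either direction and 5.3% were lower. Otoa had 6.88, 7.03 and 7.15 in Nav1.8 littermates, against 7.35, 7.45 and 7.27 in Nav1.9 littermates (difference -0.34, standard error 0.0952, adjusted p = 0.0302 from limma). Cd55 had 12.28, 12.32 and 12.46 in Nav1.8 littermates, against 12.56, 12.61 and 12.56 in Nav1.9 littermates (difference -0.23, standard error 0.0699, adjusted p = 0.0432).

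The other 4 members did not pass between Nav1.8 and Nav1.9 littermates: Lpar3 differed by 0.22 (adjusted p = 0.0808 from limma, and 0.0464 after quantile normalization), Runx1 by -0.29 (adjusted p = 0.168), Prkcq by -0.13 (0.404) and Osmr by 0.06 (0.888). For 4 of 6 members (Prkcq, Otoa, Cd55 and Lpar3) these littermates did not overlap, against 32.4% of all genes. The Otoa call was lost without Nav1.8 littermate replicate 1 or 2 or Nav1.9 littermate replicate 1 or 2 (adjusted p = 0.135, 0.0767, 0.0779 and 0.102). The Cd55 call was lost without any array but Nav1.8 littermate replicate 3 (adjusted p = 0.158 and 0.131 without Nav1.8 littermates 1 and 2, and 0.0934, 0.111 and 0.0816 without Nav1.9 littermates 1 to 3).

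Single probe sets differed more. Runx1 1422865_at had 7.82, 7.88 and 8.57 in Nav1.8 littermates, against 9.09, 9.03 and 9.21 in Nav1.9 littermates (difference -1.02, adjusted p = 0.00649 over all probe sets from limma). Cd55 1460242_at had 9.86, 9.95 and 10.25 in Nav1.8 littermates, against 10.87, 10.99 and 11.02 in Nav1.9 littermates (difference -0.94, adjusted p = 0.000754). Neither probe set overlapped between these littermates, and 10.8% of all probe sets passed. Runx1 1440878_at and Cd55 1443906_at, by contrast, overlapped between the same arrays and differed by 0.04 and -0.06, and the dim Osmr 1418675_at differed by -0.67 (adjusted p = 0.00374).

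Some of these probe sets moved with the Gapdh control and others did not. Over the 12 arrays of the Nav1.8 and Nav1.9 lines, the correlation with its 5′ minus 3′ difference was 0.98 for Cd55 1460242_at, 0.96 for Runx1 1422865_at, 0.90 for Cd55 1418762_at, 0.84 for Otoa and 0.71 for Runx1 1422864_at, and -0.03 for Runx1 1440878_at. For Prkcq it was 0.74, for Cd55 1443906_at 0.42, for Lpar3 -0.39 and for Osmr 1418674_at -0.48. These points share line, RNA and preparation, and the values are a description. With group means removed, over all 18 arrays, r was 0.88 for Runx1 1422865_at and 0.85 for Cd55 1460242_at. For the brightest probe sets it was 0.66 for Cd55, 0.53 for Runx1, 0.50 for Otoa, 0.37 for Prkcq, 0.06 for Osmr and 0.05 for Lpar3. Over all genes the 10th and 90th percentiles of this r were -0.47 and 0.37. Within the Nav1.9 line, KO replicate 3 had the lowest Gapdh difference (-0.24) and lower values than the other KO arrays for Runx1 1422864_at (9.73) and 1422865_at (8.74).

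With the Gapdh difference as a term, chosen after seeing the data, 0 of 6 members passed between Nav1.8 and Nav1.9 littermates (0 at an unadjusted p under 0.05), and 3 of all genes in place of 2329. Otoa then differed by -0.02 and Cd55 by 0.06. The 2 groups do not overlap in this measure, so line and RNA completeness cannot be told apart. In Nav1.7 KO the same term left Runx1 at -0.82, Prkcq at -0.90, Otoa at -0.85, Cd55 at -0.50, Osmr at 0.85 and Lpar3 at -0.33.

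**Figure D3:**
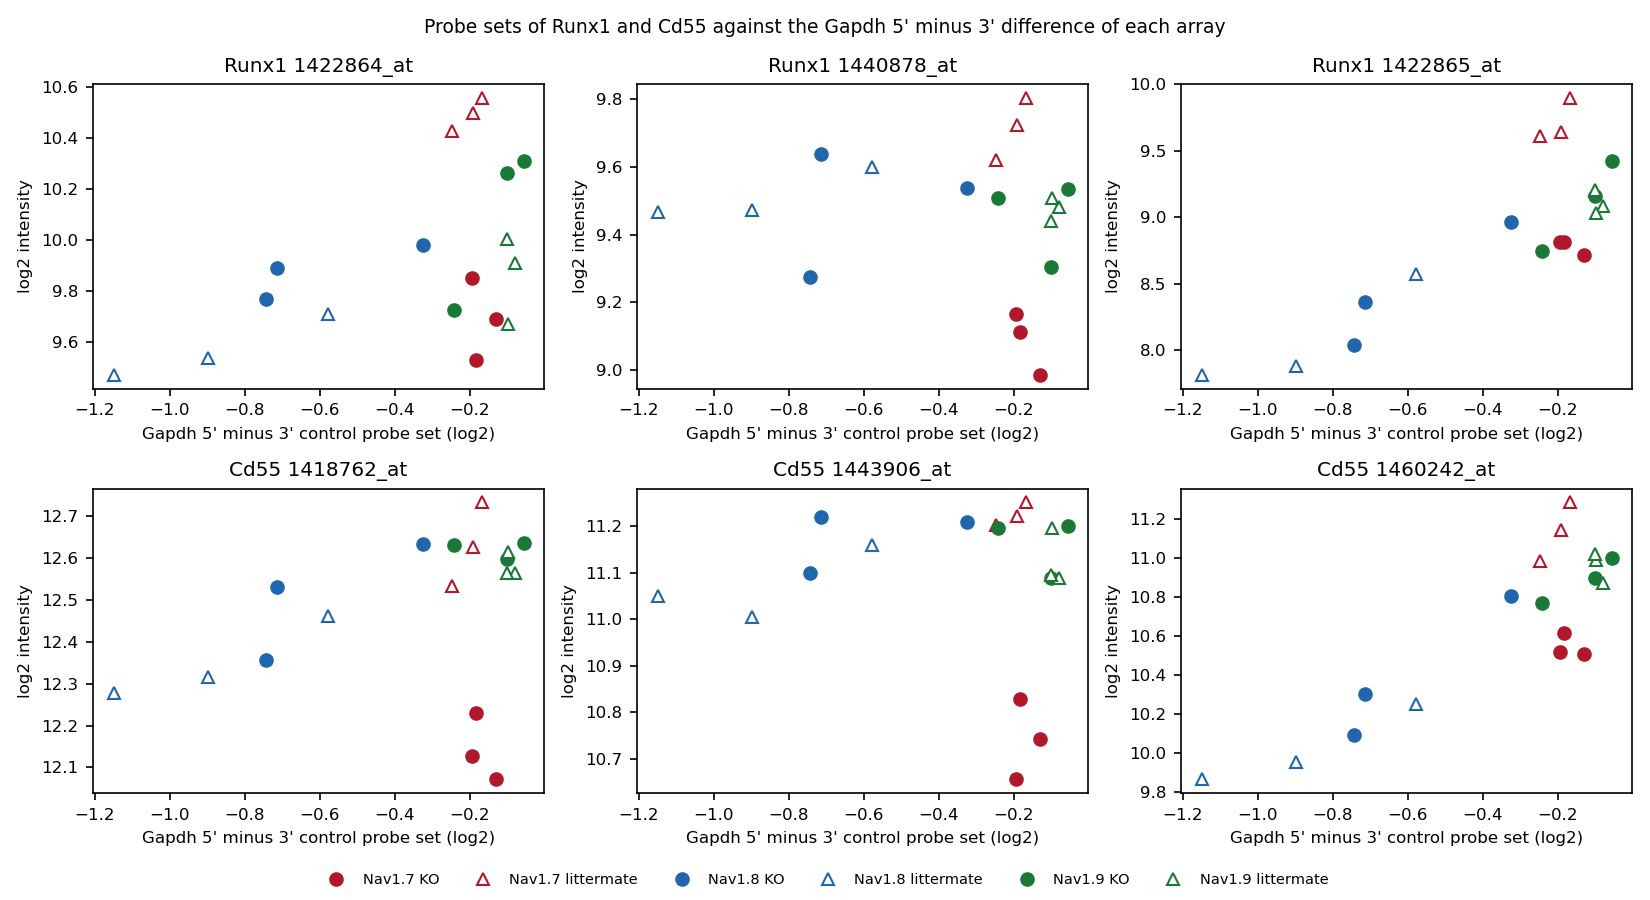
Log2 intensity of 3 Runx1 and 3 Cd55 probe sets in each array (vertical) against the Gapdh 5′ minus 3′ control difference of that array (log2, horizontal), with KO arrays as filled circles and littermates as open triangles, coloured by line. Runx1 1422865_at and Cd55 1460242_at are lower where the control is lower in the Nav1.8 line, and Runx1 1440878_at is not (r = -0.03 over the 12 arrays of the Nav1.8 and Nav1.9 lines).

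Nav1.7 littermates are described without a test, since they helped to choose the members. Runx1 was 0.92 above Nav1.8 littermates and 0.63 above Nav1.9 littermates, and Otoa 0.55 and 0.21 above them. Lpar3 was 0.08 above Nav1.8 littermates and 0.31 above Nav1.9 littermates, Cd55 0.28 and 0.05 above, Prkcq -0.05 and -0.18, and Osmr -0.34 and -0.27. Of all genes, 23.3% and 12.2% passed in these comparisons. The Gapdh difference of Nav1.7 littermates (-0.25 to -0.17) was below that of Nav1.9 littermates (-0.10 to -0.08). Its part in these levels was not tested. All Nav1.7 littermates were Xist-high and all littermates of the other lines Xist-low, so line and Xist class cannot be told apart there.

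In Nav1.8 KO DRG, 0 of 6 members passed the test, where 0.0165% of all genes did, and 3 of 6 had an unadjusted p under 0.05 against 8.09% of all genes. Runx1 differed by 0.31 (95% interval 0.03 to 0.59, adjusted p = 0.584 from limma), Otoa by 0.22 (0.02 to 0.42, adjusted p = 0.586) and Cd55 by 0.15 (0.01 to 0.30, adjusted p = 0.599). Lpar3 differed by 0.13 (-0.04 to 0.30), Osmr by 0.07 (-0.38 to 0.52) and Prkcq by 0.07 (-0.14 to 0.27). Runx1 arrays did not overlap between Nav1.8 KO and littermates, 1 of 6 members against 13.8% of all genes.

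Xist class and the Gapdh control both varied among Nav1.8 KO arrays. The Xist-low array, replicate 1, also had the lowest Gapdh difference of them (-0.74). Their parts in the member values were not tested. Otoa had 7.02, 7.34 and 7.37 in Nav1.8 KO arrays, against 6.88, 7.03 and 7.15 in littermates, and the 2 higher KO arrays are the Xist-high ones. Osmr had 10.53, 10.68 and 10.55 in the same KO arrays, against 10.56, 10.44 and 10.55 in littermates. With the Gapdh term, Runx1 differed by 0.14, Otoa by 0.11, Cd55 by 0.05 and Prkcq by -0.02. With Xist class as a term, Prkcq differed by -0.11 and Otoa by 0.03.

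In Nav1.9 KO DRG, 0 of 6 members passed, where 0.473% of all genes did, and 2 of 6 had an unadjusted p under 0.05 against 12.1% of all genes. Lpar3 had 10.65, 10.85 and 10.97 in Nav1.9 KO arrays, against 10.56, 10.71 and 10.52 in littermates (difference 0.23, 95% interval 0.06 to 0.40, adjusted p = 0.262 from limma). Otoa had 7.47, 7.61 and 7.62 in Nav1.9 KO arrays, against 7.35, 7.45 and 7.27 in littermates (difference 0.21, 0.01 to 0.41, adjusted p = 0.403). The Lpar3 arrays overlapped and the Otoa arrays did not, 1 of 6 members against 18% of all genes.

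The other members of Nav1.9 KO DRG differed from littermates by 0.24 for Runx1 (95% interval -0.04 to 0.52), 0.10 for Prkcq (-0.10 to 0.30), 0.04 for Cd55 (-0.11 to 0.19) and -0.06 for Osmr (-0.51 to 0.40). Leaving out 1 array moved the Runx1 difference to between 0.13 (without KO replicate 2) and 0.42 (without KO replicate 3), with 0.14 without littermate replicate 2 and 0.16 without KO replicate 1, and it passed in none of these runs (adjusted p = 0.136 to 0.778 from limma). Whether these effects differ from those of Nav1.7 KO was not tested for the members, since Nav1.7 KO chose them. The effects of Nav1.8 KO and Nav1.9 KO were also set against each other: 0 of 6 members differed (0 at an unadjusted p under 0.05, against 9.04% of all genes), where 0.0385% of all genes did. The widest interval of that difference was -0.51 to 0.77, for Osmr, and the narrowest was -0.10 to 0.32, for Cd55, so these arrays leave room for effects that differ between the lines.

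**Figure D4:**
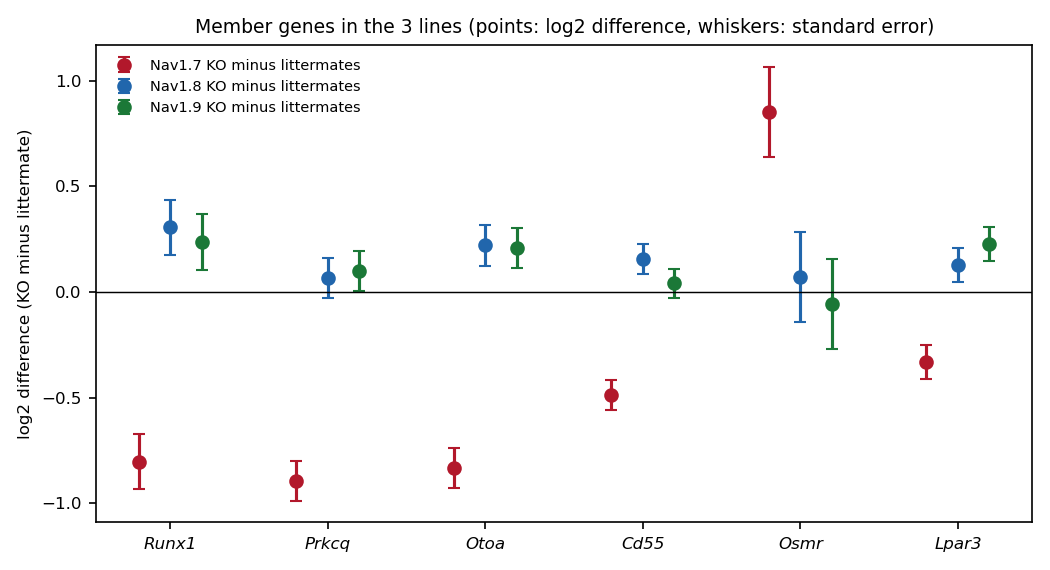
Log2 difference, KO minus littermate, of the 6 measured members in each line, with standard errors. Nav1.7 KO lies between -0.89 and -0.33 for 5 genes and at 0.85 for Osmr, and the Nav1.8 and Nav1.9 lines lie between -0.06 and 0.31.

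Other genes of non-peptidergic nociceptors were counted from a list of 24, of which 19 were measured and none is a member. In Nav1.7 KO DRG, 6 fell, 0 rose and 13 did not pass, with a median difference of -0.29 against 0.01 over all genes. In this comparison 2.51% of all genes fell and 1.81% rose. This list, like the gene lists below, was chosen with earlier results of these data known. Its counts and p-values are therefore a description and no independent support for the members. P2ry1, a receptor for ADP, had 5.83, 6.19 and 6.20 in Nav1.7 KO arrays, against 7.42, 7.24 and 7.13 in littermates (difference -1.19, adjusted p = 5.37e-06 from limma). Grik1, a kainate receptor subunit, had 10.81, 10.64 and 10.87 in Nav1.7 KO arrays, against 11.65, 11.67 and 11.57 in littermates (difference -0.86, adjusted p = 8.35e-06). Both sets of KO arrays lay below every other array of the series.

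Casz1, a zinc finger transcription factor, fell by 0.53 in Nav1.7 KO DRG (adjusted p = 1.75e-05 from limma), and Plxnc1, a semaphorin receptor, by 0.29 (adjusted p = 0.00323). Casz1 in Nav1.7 littermates, at 8.02 to 8.03, was above every other array of the series. Its Nav1.7 KO arrays, at 7.43 to 7.52, overlapped Nav1.9 littermates at 7.51 to 7.60. The GDNF family receptors Gfra2 (-0.31, adjusted p = 0.0128) and Ret (-0.16, adjusted p = 0.0375) also fell. Leaving out littermate replicate 1 or 2 or KO replicate 1 or 2 ended the Ret call (adjusted p = 0.102 to 0.141), and leaving out littermate replicate 2 or 3 or KO replicate 2 ended that of Gfra2 (0.0507 to 0.0585). As the mean of its 2 probe sets Grik1 differed by the same -0.86 but did not pass (adjusted p = 0.494), with 3 Nav1.9 arrays near 4 in the second probe set. That probe set had 8.59 to 8.74 in Nav1.7 KO arrays, against 9.48 to 9.55 in littermates.

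P2rx3, the ATP receptor of nociceptors, did not follow, with a difference of 0.07 (adjusted p = 0.504 from limma), nor did Mrgpra3, an itch receptor (0.30, adjusted p = 0.0516), and Trpa1 (0.23, adjusted p = 0.102). Gna14, a G-protein subunit, and Gfra1 were also among the 13 that did not pass.

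In Nav1.8 KO DRG, 0 of the 19 passed (1 at an unadjusted p under 0.05), with differences from -0.47 to 0.54. In Nav1.9 KO DRG, 2 fell and 17 did not pass: the targeted gene Scn11a (-1.85) and Ret (-0.22, adjusted p = 0.0281 from limma). At an unadjusted p under 0.05 there were 7 of the 19, against 12.1% of all genes. Of the 19, 11 had a negative and 8 a positive difference. Nts, which did not pass, had 9.59, 9.56 and 9.58 in Nav1.9 KO arrays, against 11.32, 10.73 and 10.79 in littermates. Ret passed there only with all arrays or without Nav1.9 littermate replicate 1 (adjusted p = 0.0539 to 0.119 without any other 1 array of the line). P2ry1 differed by 0.15 in Nav1.8 KO DRG and by -0.07 in Nav1.9 KO DRG, and Grik1 by 0.05 and 0.10, none of which passed.

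**Figure D5:**
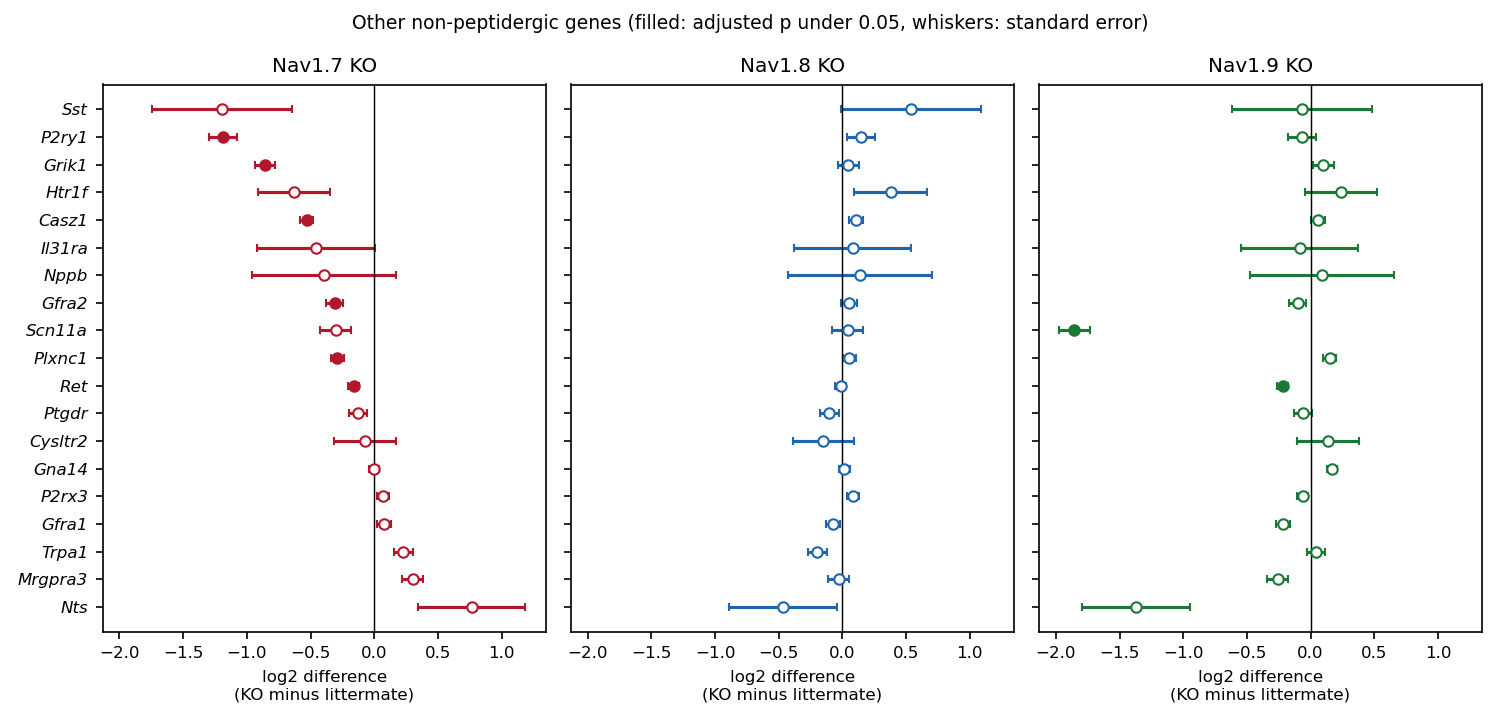
Log2 difference, KO minus littermate, of 19 other non-peptidergic genes in each line, with standard errors and filled points for an adjusted p under 0.05. P2ry1 and Grik1 lie at -1.19 and -0.86 in Nav1.7 KO, and Scn11a at -1.85 in Nav1.9 KO.

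Of the listed genes, 6 are known from the Osmr neurons of mouse: Il31ra, Nppb, Sst, Htr1f, Nts and Cysltr2. Il31ra, its partner in the interleukin 31 receptor, had 8.62, 8.78 and 7.10 in Nav1.7 KO arrays, against 9.22, 9.42 and 7.23 in littermates. Nppb, the peptide natriuretic polypeptide b, had 9.76, 9.77 and 7.44 in Nav1.7 KO arrays, against 10.01, 10.27 and 7.88 in littermates. Replicate 3 of both groups was far below every other array of the series for both genes, and it was the lowest of each group for Sst (5.81 in KO, 6.98 in littermates) and for the serotonin receptor Htr1f (6.43 and 6.57). Osmr itself was low in littermate replicate 3 (9.41) but not in KO replicate 3 (10.90). Nts, the peptide neurotensin, had 9.56, 10.08 and 9.04 in Nav1.7 KO arrays, against 9.74, 9.32 and 7.33 in littermates, and so was also far lower in littermate replicate 3 than in any other array.

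With all arrays none of these genes passed in Nav1.7 KO DRG: Il31ra differed by -0.46 (adjusted p = 0.697 from limma), Nppb by -0.40 (0.803), Sst, somatostatin, by -1.19 (0.295), Htr1f by -0.63 (0.284), Nts by 0.76 (0.405) and Cysltr2, a leukotriene receptor, by -0.07 (0.927). With replicate 3 left out of both Nav1.7 groups, a setting chosen after seeing the values, Htr1f (-0.87, adjusted p = 0.0138), Il31ra (-0.62, adjusted p = 0.0302) and Sst (-1.21, adjusted p = 0.0478) passed as lower, while Nppb differed by -0.37 (adjusted p = 0.309), Cysltr2 by -0.20 (0.759), Nts by 0.29 (0.563) and Osmr by 0.53. In that setting 8 of the 19 genes fell, against 2.99% of all genes that passed in either direction. Of the 6 genes, 3 thus passed as lower in the remaining arrays and 3 did not pass.

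Runx1 is also known in mouse to shape the C-fibre low-threshold mechanoreceptors. All 3 measured of 4 listed genes fell in Nav1.7 KO DRG: Th, the enzyme of catecholamine synthesis (difference -2.26, adjusted p = 6.46e-09 from limma), Tafa4, a secreted protein of these neurons (-0.94, adjusted p = 3.41e-05) and the zinc finger gene Zfp521 (-0.67, adjusted p = 2.50e-05). There 2.51% of all genes fell. This list too was chosen with earlier results of these data known, so its calls are a description. Tafa4 had 9.41, 9.76 and 9.73 in Nav1.7 KO arrays, against 10.57, 10.67 and 10.50 in littermates. In limma 0 of 3 passed in Nav1.8 KO DRG (0 at an unadjusted p under 0.05) and 0 of 3 in Nav1.9 KO DRG (1 unadjusted), where Tafa4 differed by -0.48 (adjusted p = 0.0546).

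Of 6 measured relatives and partners of Runx1, Zfp521 fell in Nav1.7 KO DRG and 5 did not pass (2 of 6 had an unadjusted p under 0.05). Among the 5 were Cbfb, the subunit that Runx1 binds (0.01, adjusted p = 0.969 from limma), and Runx3, which acts in proprioceptors (-0.03, adjusted p = 0.935). The homeobox factor Tlx3 (-0.10, adjusted p = 0.489) was another. Of 29 measured relatives of the other members, such as further protein kinase C isoforms, receptors for lysophosphatidic acid and subunits of the oncostatin M receptor, 1 fell, Prkca (-0.20, adjusted p = 0.0312), and 28 did not pass. The signalling subunit Il6st, which pairs with Osmr, differed by -0.30 (adjusted p = 0.464). The Prkca call was lost in 4 of 6 runs that left out 1 array (without Nav1.7 littermate replicate 1 or 2 or KO replicate 2 or 3).

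Genes that Runx1 is known to hold down in mouse, and peptidergic genes, were also counted. Met, a receptor tyrosine kinase, and Oprm1, the mu opioid receptor, differed by 0.26 (adjusted p = 0.109 from limma) and 0.21 (adjusted p = 0.262) in Nav1.7 KO DRG. Met fell in Nav1.9 KO DRG (-0.50, adjusted p = 0.0142), with 6.48 to 6.58 in Nav1.9 KO arrays, against 6.97 to 7.13 in littermates, which were above every other array of the series. The Met call ended when Nav1.9 littermate replicate 1 (adjusted p = 0.0688) or Nav1.9 KO replicate 1 (0.0639) was left out. Of 7 measured peptidergic genes, 3 rose in Nav1.7 KO DRG (Trpv1, Tac1 and Adcyap1, the last lost without any 1 array), 0 fell and 4 did not pass. There 1.81% of all genes rose. In limma 3 of the 7 were lower in Nav1.7 than in Nav1.8 littermates, and 4 lower than in Nav1.9 littermates. In those comparisons 23.3% and 12.2% of all genes passed in either direction. The linear sum of the 7 was 14.72 to 14.75 (log2) in Nav1.7 KO arrays, within the range of Nav1.9 littermates (14.68 to 14.77). Nav1.7 and Nav1.8 littermates were at 14.53 to 14.57 and 14.61 to 14.68.

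Markers of the other cells of the ganglion were summed on the linear scale per array. Macrophage markers (8 genes) summed to 10.73 to 11.14 on the log2 scale in Nav1.7 KO arrays, against 10.42 to 10.71 in littermates. The groups did not overlap, all 8 genes were higher, and 1 of 8 passed (Adgre1, 0.37, adjusted p = 0.0285 from limma). Nav1.8 and Nav1.9 littermates were at 11.11 to 11.15 and 10.87 to 11.11. Nav1.7 littermates were thus the lowest group, and Nav1.7 KO arrays overlapped the other littermates. In limma 5 of 8 were lower in Nav1.7 than in Nav1.8 littermates, where 23.3% of all genes passed in either direction. Pan-neuronal markers (9 genes) summed to 15.90 to 15.93, against 16.00 to 16.04 in littermates, with 1 of 9 lower at the threshold, Avil. That gene carries Cre in this line. In all, 8 of 9 pan-neuronal genes had a negative difference, and 6 of 9 had an unadjusted p under 0.05 in limma (6 of 8 macrophage genes). Glial markers (5 genes) summed to 15.45 to 15.58 in Nav1.7 KO arrays, against 15.37 to 15.45 in littermates, with 1 of 5 higher (Fabp7). Nav1.8 and Nav1.9 littermates were at 15.46 to 15.51 and 15.56 to 15.63 for the glial sum. In Nav1.7 KO 0 of 6 T cell, 0 of 6 fibroblast and 0 of 5 endothelial markers passed (0, 0 and 2 at an unadjusted p under 0.05). Endothelial sums were 9.40 to 9.65 in Nav1.7 KO and 9.29 to 9.42 in Nav1.7 littermates, both below the other littermates (9.72 to 9.85). The Adgre1 call was lost without Nav1.7 littermate replicate 2 or 3 or KO replicate 2 or 3 (adjusted p = 0.0657 to 0.120), and the Fabp7 call without littermate replicate 3 or KO replicate 1 or 2 (0.0714 to 0.0812). These shifts move with the member differences in Nav1.7 KO, and their part in them was not tested.

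Nerve injury genes differed in several comparisons. Their sum over 8 genes was 12.74 to 12.95 in Nav1.7 KO arrays, against 12.54 to 12.66 in littermates, and 1 of 8 rose, Jun (0.41, adjusted p = 0.00256 from limma). The sum was 12.64 to 12.73 in Nav1.9 KO arrays, against 12.93 to 13.59 in littermates, and 5 of 8 fell, with a median difference of -1.21 over the 8. In that comparison 0.473% of all genes passed in either direction. With only the arrays of these groups in the fit, all 5 calls ended (adjusted p = 0.0598 for Jun to 0.269 for Gpr151 from limma). The Gpr151 call was also lost without any 1 KO array (0.0546 to 0.0876), and that of Jun without Nav1.9 littermate replicate 1 (0.0527) or KO replicate 2 (0.0539). In Nav1.8 KO arrays the sum was 12.51 to 12.63, against 12.75 to 12.78 in littermates, and 0 of 8 passed in limma (4 at an unadjusted p under 0.05). The sum was 12.75 to 12.78 in Nav1.8 littermates, against 12.93 to 13.59 in Nav1.9 littermates, and all 8 genes were lower in Nav1.8 littermates, 7 of them past the threshold, as were 5.3% of all genes. Atf3, a transcription factor induced by axon injury, differed by -1.10 (adjusted p = 0.0148), by -1.03 without Nav1.8 littermate replicate 2 (0.0588) and by -0.72 without Nav1.9 littermate replicate 1 (0.0539). With the Gapdh term all 7 calls ended (adjusted p = 0.667 for Jun to 0.967 for Gpr151 from limma), while Atf3 then differed by -1.37. Line and RNA completeness cannot be told apart between these littermates. The part of the injury genes in the member values was not tested.

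The genes whose levels were most like those of Runx1 (1422864_at) over the 18 arrays were Cemip2 (Pearson's r 0.94), Polr3f (0.89), Slitrk4 (0.89), Ube3a (0.89) and Rmdn2 (0.86). Of the members, Otoa (0.70) and Cd55 (0.63) came closest, followed by Prkcq (0.33), Lpar3 (0.24) and Osmr (-0.44). With group means removed, r with Runx1 was 0.79 for Cemip2 and 0.86 for Ube3a, and, of the members, 0.39 for Prkcq, 0.19 for Cd55, 0.10 for Osmr, 0.09 for Otoa and -0.52 for Lpar3. Cemip2, a cell-surface hyaluronidase, averaged 8.60 in Nav1.7 KO DRG, against 9.32, 8.57 and 8.89 in the littermates of the Nav1.7, Nav1.8 and Nav1.9 lines. Runx1 showed the same order, with 9.69 against 10.49, 9.57 and 9.86. These correlations share line, Xist class and RNA completeness, and within groups Cemip2 and Rmdn2 had r of 0.41 and 0.58 with the Gapdh difference, against 0.53 for Runx1.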

How the data were processed

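Total RNA of whole DRG was hybridised to Affymetrix whole-genome mouse arrays, 1 array per sample. The deposited values are log2 intensities, which the authors made with Affymetrix Expression Console per the labels; the summary method, normalization and genome build are not given in the sources used here. Array medians were 6.33 to 6.36, and arrays of a group correlated at 0.996 to 0.998. Depth does not apply to arrays.

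Of 45101 probe sets, 64 controls were left out of the tests; 34945 have 1 gene symbol in the platform annotation, 932 several and 9160 none listed. The brightest probe set named for a gene alone stood for it (18193 genes), and 45037 probe sets were also fitted singly. Groups were taken from sample titles. limma 3.58.1 (lmFit, eBayes; R 4.3.3) was fitted to 6 group means over 18 arrays, with Benjamini-Hochberg adjustment over all genes and a threshold of 0.05. The code was tested on simulated data. Differences are first group minus second, on the log2 scale, with standard errors and 95% intervals from the fit.

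The members and gene lists were chosen with earlier results of these data known. Named were all members, up to 4 genes per list and comparison that passed, by smallest p, the targeted genes with Avil, and the 5 genes most correlated with Runx1; other genes named as not passing, or for replicate 3 of the Nav1.7 line, were chosen after their values were seen. Alternatives changed centring, normalization, probe-set choice, prior, weights, arrays and terms. Deviations of same-numbered KO and littermate arrays correlated at -0.19 to 0.27 over the lines. In the Nav1.7 line they correlated at 0.02, 0.25 and 0.27, against -0.25 to 0.02 for arrays of unlike number. In the other lines the same-numbered values lay within the range of the unlike-numbered ones or close to it. The main fit did not pair samples, and whether the numbers mark a shared preparation is not stated. Promoter windows are from RefSeq (GRCm38.p6).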

Additional observations from a re-analysis of the deposited data

Results flagged for a closer look

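Scn11a, 1 of the listed non-peptidergic genes, differed between the effects of Nav1.8 KO and Nav1.9 KO by 1.896 on the log2 scale (limma, adjusted p = 7.22e-05). It is the gene targeted in the Nav1.9 line, where it was lower in 3 of 3 KO arrays than in every littermate.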

How the results depend on the processing

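The number of members that passed stayed at 0 in Nav1.8 KO, in Nav1.9 KO and for the difference of their effects under every alternative run. Among members between Nav1.8 and Nav1.9 littermates, 2 passed; the count was 1 with only the arrays compared, 4 with each probe set tested on its own, 0 at the study's threshold (unadjusted p under 0.01 and fold over 1.5), 0 with the Gapdh term, and 0 to 2 with 1 array left out. Of other non-peptidergic genes, 6 passed in Nav1.7 KO, 2 at the study's threshold and 4 to 7 with 1 array left out; Ret did not pass with median centring (adjusted p = 0.0588), with Xist class as a term (0.0818) or with only the arrays compared (0.185), nor Plxnc1 with the last (0.0512). In Nav1.9 KO 2 passed, against 1 with the mean of probe sets, 4 with a trended robust prior, 1 with each probe set on its own and 1 to 2 with 1 array left out. Between Nav1.8 and Nav1.9 littermates 2 passed, against 1 with median centring, 5 with the mean of probe sets, 1 with a trended robust prior, 5 with array weights, 8 with each probe set, 0 with the Gapdh term, 0 at the study's threshold and 0 to 1 with 1 array left out. The main fit did not use the replicate number as a block. With that block, 1 member and 1 other gene passed between those littermates, and 1 other gene in Nav1.9 KO. In Nav1.7 KO the block ended the calls of Gfra2 (limma, adjusted p = 0.0573) and Ret (0.0875) while the count was again 6. Directions turned for small differences. Prkcq in Nav1.8 KO was -0.11 with Xist class as a term, -0.018 with the Gapdh term, -0.14 in Xist-low arrays and -0.010 without KO replicate 3 (-0.010 to 0.17 with 1 array left out), and Otoa there was -0.0053 in Xist-low arrays. Osmr in Nav1.9 KO was 0.011 without littermate replicate 3 and 0.0057 without KO replicate 1 (-0.13 to 0.011 with 1 array left out). Between Nav1.8 and Nav1.9 littermates, the Gapdh term gave Runx1 0.18, Prkcq 0.10 and Cd55 0.061, and Osmr was -0.17 with the mean of probe sets and -0.0081 without Nav1.9 littermate replicate 1 (-0.0081 to 0.13 with 1 array left out). The Gapdh term, the Xist-low arrays and the omission of Nav1.7 replicate 3 were chosen after seeing the data. The causes were not tested. The Osmr probe sets 1418675_at and 1459217_at lie below percentile 40 of brightness, where signal limits the precision.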

Other observations

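The second Grik1 probe set, 1439987_at, split the Nav1.9 arrays. It had 8.51, 8.77 and 4.14 in Nav1.9 KO arrays, against 4.07, 8.51 and 4.13 in Nav1.9 littermates. The 12 other arrays lay between 8.59 and 9.56, and the brighter probe set 1427676_a_at lay between 11.36 and 11.67 in all 6 Nav1.9 arrays.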
